A study of Mus musculus with 28 samples.

Results

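The genes described here are 10 antiviral genes that type I interferon induces, namely Mx1, Rsad2, Ifit2, Ifit3, Oasl2, Stat2, Usp18, Rtp4, Zbp1 and Xaf1. They were chosen by name as members of the type I interferon response, and all 10 were read among the 17097 genes tested. Each gene was read through the probe set that carries its symbol alone. Where a gene had several such probe sets, the one with the highest mean over the 26 arrays titled biological was used.

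Messenger RNA was measured on Affymetrix HT MG-430 PM arrays in splenic total CD4+ T cells of female mice that were 12 weeks old. C57BL/6 mice, titled WT in the labels, were the reference. B6.Sle1b mice carry, on the C57BL/6 background, the Sle1b interval of chromosome 1, a region linked to lupus susceptibility that spans the SLAM family of lymphocyte receptors. Sle1b.BACSlamf6-H1 mice, written Sle1b.BAC below, keep that interval and have an added bacterial artificial chromosome, which the strain's name ties to Slamf6-H1, a splice form of a SLAM family receptor. All 3 strains thus share the C57BL/6 background, and no group carries the artificial chromosome without the interval. Cells were left unstimulated, or were kept for 4 h or 24 h on plate-bound anti-CD3 antibody (0.1 µg/ml), which engages the T cell receptor complex. The 26 arrays formed 8 groups of 3 and 1 group of 2, C57BL/6 at 24 h. A further 2 arrays of that last group, titled technical, entered only alternative analyses.

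Type I interferons are secreted when a cell senses foreign or misplaced nucleic acid. They bind a receptor made of IFNAR1 and IFNAR2, whose kinases JAK1 and TYK2 phosphorylate STAT2. A complex that holds STAT2 and IRF9 then binds a short element, the interferon-stimulated response element (ISRE), in the promoters of a large set of genes whose products restrict viruses. In T cells the same genes can also be raised after receptor stimulation, and a raised interferon signature in blood cells is a known feature of lupus.

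The 75th percentile of the intensities of an array lay between 34.2 and 53.3, and the median between 9.12 and 10.5. All levels below are log2 intensities, and levels are compared only within a gene. The background of an array was taken from its 23 non-specific control probe sets, as their 95th percentile, between 2.76 and 3.21 log2. All 7 CD4 T cell markers that were read lay above background in all 9 groups. In total CD4+ cells, fewer cells of a type and less RNA per cell cannot be told apart. Whether arrays of a group stand for separate animals is not said in the labels. The p-values then reflect only how these samples vary, and part of that variation may be technical. Differences are given as log2 difference ± SE from a limma fit over the 26 arrays, with p-values adjusted by the Benjamini-Hochberg method over the 17097 genes. Genes with an adjusted p under 0.05 were called, and only called genes are said to have risen or fallen. Overlap of arrays between groups is a description without a test, and the share of all genes without overlap is not given.

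The promoter table from RefSeq (GRCm38.p6) held 7 promoters of 6 of the 10 genes, each of 300 bases around a start site. Because the ISRE is the element through which type I interferon acts on these genes, its core, GAAA, any 2 bases and GAAA again, was searched on both strands. It was found in 3 of the 7 member promoters, those of Rsad2, Ifit3 and Stat2, and in 1131 of all 32841 promoters (3.44%). The matches are shown 5′ to 3′ on the strand of the gene, with 10 bases on each side and the match in capitals. Each reads as the reverse complement of the core.

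Rsad2, chr12:26456553-26456582, minus strand, GRCm38.p6, 120 bases before the start site: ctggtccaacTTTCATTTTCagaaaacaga

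Ifit3, chr19:34583363-34583392, plus strand, GRCm38.p6, 156 bases before the start site: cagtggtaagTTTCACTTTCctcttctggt

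Ifit3, chr19:34583397-34583426, plus strand, GRCm38.p6, 122 bases before the start site: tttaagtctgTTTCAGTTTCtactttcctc

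Stat2, chr10:128270266-128270295, plus strand, GRCm38.p6, 222 bases before the start site: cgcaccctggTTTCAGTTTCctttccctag

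The Ifit3 promoter held 2 matches, and its listed start site lay 410 bases inside the RefSeq gene span, so both Ifit3 matches fall within that span. Within the 10-base match, the second Ifit3 element and that of Stat2 have the same letters. No match lay in the windows of Ifit2, Oasl2 and Xaf1. The 2 listed start sites of Ifit2 lay 144 and 538 bases inside its gene span, and that of Xaf1 168 bases inside. Only part of these windows, or none, thus lies before the gene span. The lack of a match there does not show that these genes lack the element. The GAS element TTCNNNGAA, which interferon gamma acts through, was searched in the same way and found in 1 of the 7 member promoters, that of Ifit2, and in 2725 of all promoters (8.30%). The Ifit2 window holds no match to the ISRE core, so the motifs do not overlap in it. A match describes these letters only and is not evidence of binding. No entry for Mx1, Usp18, Rtp4 or Zbp1 was among these promoters, so those genes were not searched.

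After 4 h on anti-CD3 most of the 10 genes were higher in every strain, and Mx1 and Rsad2 were not called in any. In C57BL/6 8 of the 10 rose, with 4.08% of all genes called higher in that comparison. In B6.Sle1b 6 rose, against 2.57% of all genes, and in Sle1b.BAC 8 rose, against 4.22%. The median difference over the 10 genes was 2.18 in C57BL/6, 1.61 in B6.Sle1b and, for Sle1b.BAC, 1.78, where the median over all genes was 0.03, -0.01 and 0.04. With array weights the C57BL/6 median was 1.41. These 3 strain values come from separate arrays, but the difference between strains was tested only as described further on.

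Usp18, a protease that removes ISG15 from proteins and shuts off signalling at IFNAR2, changed most. Unstimulated, it read 5.15, 4.73 and 6.26 on the 3 C57BL/6 arrays, 5.55, 6.16 and 6.96 in B6.Sle1b and 6.20, 5.83 and 5.12 in Sle1b.BAC. At 4 h it read 8.84, 8.60 and 9.37 in C57BL/6, 9.09, 8.97 and 9.58 in B6.Sle1b and 8.98, 8.83 and 9.0 in Sle1b.BAC. At 24 h it read 7.62 and 7.66 in C57BL/6, 7.83, 7.55 and 7.72 in B6.Sle1b and 7.75, 7.66 and 8.18 in Sle1b.BAC. Across all strains the times did not overlap, since every 4 h array lay above every 24 h array, and every 24 h array above every unstimulated one. The rise at 4 h was 3.56 ± 0.34 (11.8-fold, adjusted p = 2.97e-07, limma) in C57BL/6, 2.99 ± 0.34 (7.94-fold, adjusted p = 4.92e-06) in B6.Sle1b and 3.22 ± 0.34 (9.31-fold, adjusted p = 1.25e-06) in Sle1b.BAC.

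Xaf1, which binds the apoptosis inhibitor XIAP, had the same order of times with less spread between arrays. Unstimulated, it read 6.80, 6.93 and 7.05 in C57BL/6, 7.23, 6.93 and 7.63 in B6.Sle1b and 6.79, 6.73 and 6.39 in Sle1b.BAC. At 4 h it read 9.11, 9.08 and 9.72 in C57BL/6, 9.37, 9.44 and 9.78 in B6.Sle1b and 9.28, 9.20 and 9.28 in Sle1b.BAC. At 24 h it read 8.32 and 8.41 in C57BL/6, 8.09, 8.12 and 8.25 in B6.Sle1b and 8.24, 8.13 and 8.27 in Sle1b.BAC. Again no array of one time overlapped those of another. Xaf1 rose at 4 h by 2.37 ± 0.17 in C57BL/6 (adjusted p = 3.11e-09, limma), 2.27 ± 0.17 in B6.Sle1b (1.26e-08) and 2.61 ± 0.17 in Sle1b.BAC (1.08e-09).

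Zbp1, a sensor of left-handed nucleic acid that can trigger necroptosis, rose by 2.54 ± 0.29 in C57BL/6 (adjusted p = 3.12e-06, limma), 1.76 ± 0.29 in B6.Sle1b (0.00038) and 2.85 ± 0.29 in Sle1b.BAC (7.37e-07). Its unstimulated levels were 7.03, 7.87 and 8.01 in C57BL/6, 8.05, 7.74 and 9.15 in B6.Sle1b and 7.51, 6.98 and 7.13 in Sle1b.BAC. At 4 h they were 9.75, 10.19 and 10.59, then 9.88, 9.82 and 10.50, and 9.96, 10.24 and 9.97, in the same order of strains. No 4 h array overlapped an unstimulated array, although B6.Sle1b replicate 3 was high before stimulation.

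Stat2, the signal transducer of the interferon receptor itself, was low and alike in unstimulated cells. It read 4.93, 3.98 and 5.09 in C57BL/6, 4.78, 5.49 and 4.58 in B6.Sle1b and 5.39, 5.07 and 4.61 in Sle1b.BAC. At 4 h it read 6.74, 6.25 and 6.69, then 7.22, 6.71 and 6.67, and 7.0, 5.95 and 6.64, all above every unstimulated array. The rise was 1.89 ± 0.29 in C57BL/6 (adjusted p = 0.000141, limma), 1.92 ± 0.29 in B6.Sle1b (0.000151) and 1.51 ± 0.29 in Sle1b.BAC (0.00147).

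Oasl2, a relative of the oligoadenylate synthetases that detect double-stranded RNA, rose in the 3 strains. Unstimulated levels were 5.64, 3.93 and 6.48 in C57BL/6, 6.19, 6.39 and 6.38 in B6.Sle1b and 6.56, 6.07 and 5.19 in Sle1b.BAC. They reached 7.78, 7.60 and 8.23, then 7.90, 7.71 and 8.35, and 7.80, 6.90 and 7.61 at 4 h. The lowest 4 h array was above the highest unstimulated one, and C57BL/6 replicate 2 stood apart at the low end. The differences were 2.52 ± 0.42 in C57BL/6 (adjusted p = 0.000299, limma), 1.67 ± 0.42 in B6.Sle1b (0.0165) and 1.50 ± 0.42 in Sle1b.BAC (0.0228). Rtp4, a transmembrane protein first described as a chaperone of odorant and opioid receptors, read 7.59, 7.46 and 8.93 unstimulated in C57BL/6, 8.30, 8.75 and 9.74 in B6.Sle1b and 8.60, 7.94 and 7.24 in Sle1b.BAC. It read 9.68, 9.81 and 10.49, then values between 9.98 and 10.48, and 10.04, 9.96 and 9.94 at 4 h, with no overlap within a strain. Rtp4 rose by 2.00 ± 0.36 in C57BL/6 (adjusted p = 0.000831), 1.22 ± 0.36 in B6.Sle1b (0.0499, close to the threshold) and 2.06 ± 0.36 in Sle1b.BAC (0.000538).

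Ifit2 and Ifit3, which bind foreign RNA and block its translation, rose in C57BL/6 and Sle1b.BAC. Ifit3 read 5.25, 5.55 and 7.68 in unstimulated C57BL/6, 6.28, 7.10 and 8.78 in B6.Sle1b and 7.43, 6.40 and 5.51 in Sle1b.BAC. At 4 h it read 8.09, 8.13 and 9.36, then 8.51, 8.53 and 9.78, and 8.48, 8.34 and 8.67. Only in B6.Sle1b did the times overlap, through replicate 3, which read 8.78 before stimulation. Ifit3 differed by 2.37 ± 0.60 in C57BL/6 (adjusted p = 0.0148, limma), 1.56 ± 0.60 in B6.Sle1b (0.173, not called) and 2.05 ± 0.60 in Sle1b.BAC (0.0288). With the replicate number as a block within strains, the same B6.Sle1b difference was called (adjusted p = 0.0116). Whether its probe set also reads the near-identical gene Ifit3b was not analysed here. Ifit2 read 6.16, 6.86 and 7.59 unstimulated in C57BL/6, 6.80, 7.17 and 8.36 in B6.Sle1b and 7.65, 7.05 and 6.43 in Sle1b.BAC, and 7.96, 8.13 and 8.97, then 8.10, 8.02 and 8.76, and 8.40, 8.07 and 8.38 at 4 h. Its differences were 1.48 ± 0.37 (adjusted p = 0.0142), 0.85 ± 0.37 (0.268, not called) and 1.24 ± 0.37 (0.0336) in the same order of strains.

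The 4 h calls of Ifit2, Ifit3, Oasl2 and Rtp4 were the least secure. In C57BL/6 the Ifit2 call was lost without unstimulated replicate 1 or 4 h replicate 3 (adjusted p up to 0.113, limma), and the Ifit3 call without unstimulated replicate 1 or 2 or 4 h replicate 3 (up to 0.105). A fit of only the 2 groups compared ended the C57BL/6 calls of Ifit2 (0.123), Ifit3 (0.132) and Oasl2 (0.0764), and the B6.Sle1b call of Zbp1 (0.0721). In B6.Sle1b the Oasl2 call was lost without unstimulated replicate 1 or 4 h replicate 3 (up to 0.0914), and the Rtp4 call without 20 of the 26 arrays in turn (up to 0.279). In Sle1b.BAC the calls of Ifit2 (up to 0.156), Ifit3 (up to 0.137) and Oasl2 (up to 0.123) were each lost without unstimulated replicate 2 or 3 and without at least 2 of the 4 h arrays. With array weights these Sle1b.BAC values were 0.234, 0.257 and 0.0558.

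**Figure D1:**
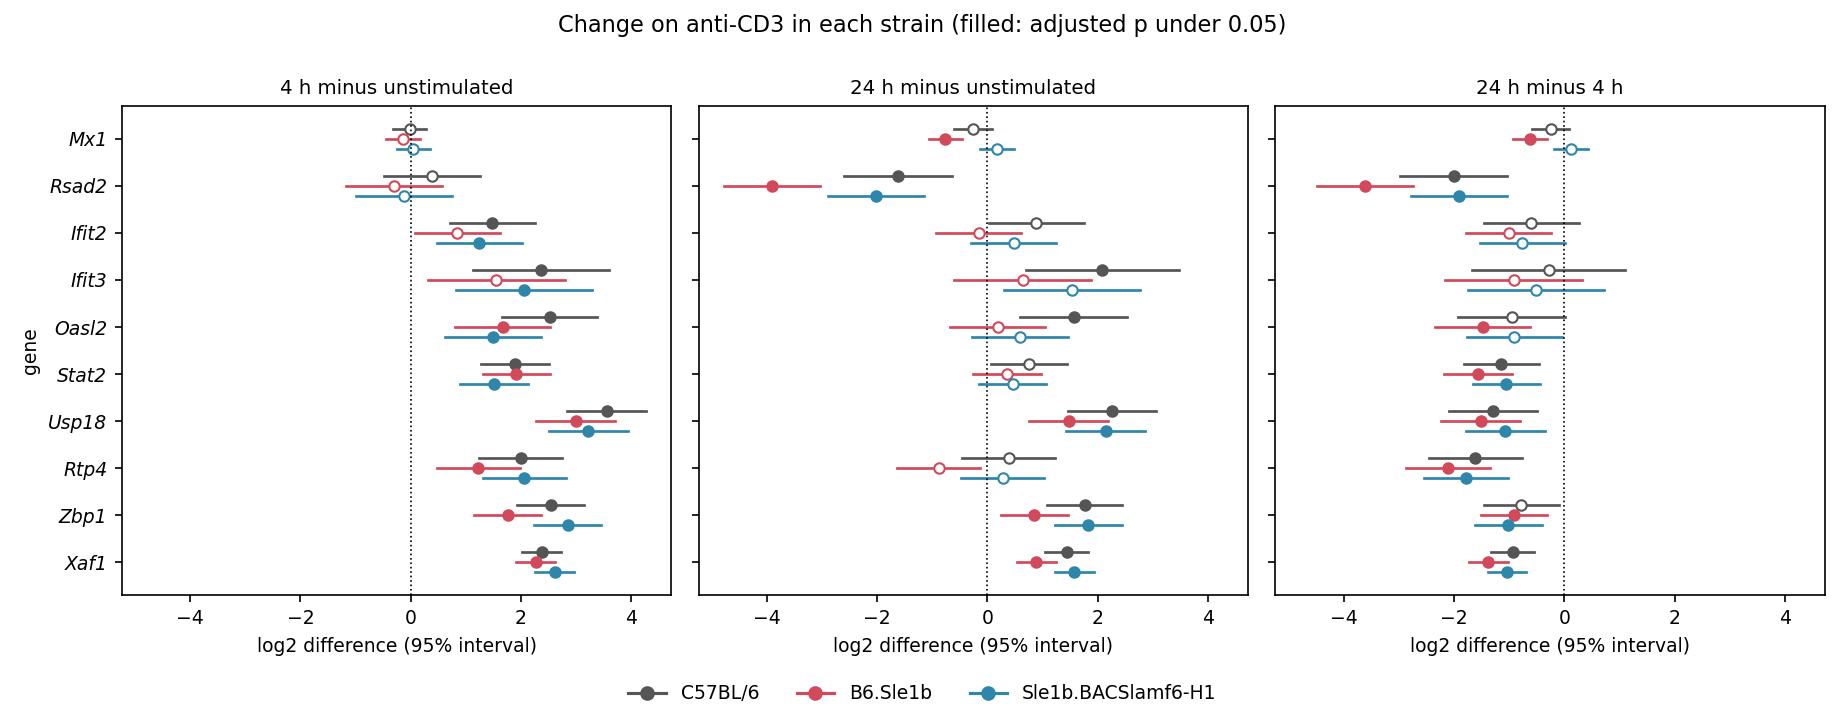
Log2 difference of 4 h and of 24 h on anti-CD3 from unstimulated cells for each of the 10 genes, with its 95% interval, in 3 strains by colour, where filled points have an adjusted p under 0.05. At 4 h Usp18 lies farthest right, at 3.56 in C57BL/6, while Mx1 and Rsad2 stay near 0, and at 24 h Rsad2 lies left of 0 in every strain, at -3.91 in B6.Sle1b.

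At 24 h the 10 genes no longer moved together. Of the 10, 5 were higher and 1 lower than in unstimulated cells in C57BL/6, 3 higher and 2 lower in B6.Sle1b, and 3 higher and 1 lower in Sle1b.BAC. Many genes changed at this time, with 15.7%, 14.8% and 17.2% of all genes called higher and 8.6%, 13.4% and 11.9% called lower in the 3 strains in that order. The median of the 10 differences was 1.16 in C57BL/6, 0.27 in B6.Sle1b and, for Sle1b.BAC, 0.54, against 0.04, 0.07 and 0.06 over all genes. With array weights these medians were 0.67, 0.47 and 0.29. The B6.Sle1b median was 0.10 without unstimulated replicate 1, and that of Sle1b.BAC was 0.84 without unstimulated replicate 1 and 0.23 without unstimulated replicate 3.

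Usp18, Zbp1 and Xaf1 were higher at 24 h than unstimulated in all 3 strains. Usp18 was higher by 2.26 ± 0.38 in C57BL/6 (adjusted p = 8.67e-05, limma), 1.48 ± 0.34 in B6.Sle1b (0.00196) and 2.15 ± 0.34 in Sle1b.BAC (3.29e-05). Xaf1 was higher by 1.44 ± 0.19 (adjusted p = 3.76e-06), 0.89 ± 0.17 (0.000277) and 1.58 ± 0.17 (1.53e-07). Zbp1 was higher by 1.76 ± 0.33 (adjusted p = 0.000229), 0.85 ± 0.29 (0.0332) and 1.83 ± 0.29 (3.12e-05). The 24 h levels of Zbp1 were 9.41 and 9.40 in C57BL/6, 9.05, 9.15 and 9.27 in B6.Sle1b and 8.94, 9.04 and 9.13 in Sle1b.BAC, so that in B6.Sle1b they overlapped the unstimulated replicate 3 at 9.15. In B6.Sle1b Rtp4 differed at 24 h by -0.88 (adjusted p = 0.0755, limma), and with the replicate number as a block within strains this difference was called (0.00639). The B6.Sle1b call of Zbp1 was lost without any one of unstimulated replicates 1 and 2 and the 3 arrays at 24 h (adjusted p up to 0.221), and in a fit of the 2 groups alone (0.129). The 6 NK cell markers summed to 281 to 399 in C57BL/6, 297 to 366 in B6.Sle1b and 253 to 373 in Sle1b.BAC before stimulation. At 24 h they summed to 587 to 855, 605 to 745 and 614 to 814. Klra8 was at background in every unstimulated group, and Ncr1 in those of C57BL/6 and B6.Sle1b. The 3 erythroid markers read summed to 1376 to 3813, 3363 to 3815 and 841 to 2190 before stimulation. At 24 h, with Alas2 at background, they summed to 588 to 1770, 1471 to 1741 and 193 to 941. Sums of the 8 monocyte and macrophage markers were 105 to 128, 123 to 174 and 120 to 149 before, and 122 to 156, 175 to 196 and 159 to 272 at 24 h. The part of these markers in the changes at 24 h was not tested.

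Ifit3 and Oasl2 were called higher at 24 h in C57BL/6 and not in the other strains, although no difference in response between strains was called. Ifit3 read 8.19 and 8.30 there, 7.62, 8.12 and 8.33 in B6.Sle1b and 7.94, 7.89 and 8.12 in Sle1b.BAC, and differed from unstimulated by 2.08 ± 0.67 (adjusted p = 0.0235, limma), 0.64 ± 0.60 (0.483) and 1.53 ± 0.60 (0.0585). Oasl2 read 6.84 and 6.99 in C57BL/6, 6.34, 6.47 and 6.70 in B6.Sle1b and 6.41, 6.55 and 6.64 in Sle1b.BAC, and differed in C57BL/6 by 1.57 ± 0.47 (adjusted p = 0.0149). Both C57BL/6 calls were lost without either 24 h array and without unstimulated replicate 2, and that of Ifit3 also without unstimulated replicate 1 (adjusted p up to 0.119 for Ifit3 and 0.0995 for Oasl2). Fitting only the groups compared ended both as well (adjusted p = 0.103 and 0.213).

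Rsad2, which encodes viperin, an enzyme that makes a chain-terminating nucleotide, went the other way. It read 6.65, 5.96 and 7.32 in unstimulated C57BL/6, 8.35, 9.01 and 9.16 in B6.Sle1b and 7.91, 7.45 and 6.83 in Sle1b.BAC. At 4 h it read 6.92, 6.53 and 7.63, then 8.07, 8.38 and 9.16, and 7.33, 7.14 and 7.35. At 24 h it read 5.40 and 4.65 in C57BL/6, 4.90, 4.39 and 5.50 in B6.Sle1b and 5.39, 4.55 and 6.18 in Sle1b.BAC. Within every strain all 24 h arrays lay below all unstimulated and all 4 h arrays, while unstimulated and 4 h arrays overlapped. From unstimulated to 24 h Rsad2 changed by -1.62 ± 0.47 in C57BL/6 (3.07-fold lower, adjusted p = 0.0123, limma), -3.91 ± 0.42 in B6.Sle1b (15.1-fold lower, 1.72e-07) and -2.03 ± 0.42 in Sle1b.BAC (4.07-fold lower, 0.000561). The C57BL/6 call was lost without unstimulated replicate 3 or 24 h replicate 2 (adjusted p up to 0.178). At 4 h its differences were 0.38, -0.30 and -0.12 in the 3 strains (adjusted p = 0.825 in C57BL/6).

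Mx1, a dynamin-like GTPase that blocks incoming viral nucleoproteins and is known to be defective in C57BL/6, was dim. It fell at 24 h in B6.Sle1b by 0.77 ± 0.15 on the log2 scale (adjusted p = 0.000276, limma). Its values in that strain were 3.69, 3.89 and 4.01 unstimulated, 3.89, 3.34 and 3.94 at 4 h and 3.25, 3.07 and 2.97 at 24 h. The 24 h arrays all lay below the others, close to background.

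Between 4 h and 24 h most of the genes fell in at least 1 strain. In C57BL/6 5 of the 10 fell, with 6.67% of all genes called lower, in B6.Sle1b 8 fell, with 11.1%, and in Sle1b.BAC 6 fell, with 7.82%. The median difference was -0.95, -1.43 and -1.03. Rsad2, Stat2, Usp18, Rtp4 and Xaf1 fell in all 3 strains. Rtp4 returned to 8.33 and 8.42 in C57BL/6, 7.85, 7.98 and 8.30 in B6.Sle1b and 8.26, 8.04 and 8.30 in Sle1b.BAC, below every 4 h array, with differences from 4 h of -1.61 (adjusted p = 0.00572, limma), -2.11 (0.00011) and -1.78 (0.000602). Stat2 returned to 5.50 and 5.34, then 5.32, 5.40 and 5.19, and 5.27, 5.36 and 5.81, again below every 4 h array, with differences of -1.14 (adjusted p = 0.0156), -1.56 (0.000291) and -1.05 (0.00941). Usp18 fell by 1.29 (adjusted p = 0.0192), 1.51 (0.00187) and 1.07 (0.0242) on the log2 scale, and Xaf1 by 0.94 (0.00084), 1.38 (1.75e-06) and 1.04 (5.32e-05).

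Of the remaining genes, Zbp1 fell in B6.Sle1b by 0.91 (adjusted p = 0.0247, limma) and in Sle1b.BAC by 1.02 (0.0116). Oasl2 fell by 1.48 (0.0104) and Mx1 by 0.62 (0.00236) in B6.Sle1b. Ifit2 and Ifit3 were not called in any strain. In B6.Sle1b they differed by -1.01 (adjusted p = 0.0521) and -0.92 (0.319). The replicate number as a block within strains made the Ifit2 difference in B6.Sle1b a call (adjusted p = 0.0085, limma). Ifit2 read 7.90 and 7.61 at 24 h in C57BL/6, 7.15, 7.43 and 7.27 in B6.Sle1b and 7.44, 7.63 and 7.48 in Sle1b.BAC. In C57BL/6, where 2 arrays stand for 24 h, calls were lost without 24 h replicate 2 for Rsad2 (adjusted p up to 0.0769), without 4 h replicate 1 or 3 or either 24 h array for Stat2 (up to 0.118), without 4 h replicate 3 or either 24 h array for Usp18 (up to 0.119) and without 24 h replicate 1 for Rtp4 (up to 0.0571). In B6.Sle1b the calls of Oasl2 and Zbp1 were lost without 4 h replicate 3, and that of Zbp1 also without 24 h replicate 1 or 2 (up to 0.0535 and 0.136). In Sle1b.BAC the Stat2 call was lost without 4 h replicate 1 (0.0668) and the Usp18 call without 4 h replicate 1 or 3 or 24 h replicate 1 or 2 (up to 0.0893). Averaging the probe sets of a gene ended the Zbp1 calls (adjusted p = 0.129 in B6.Sle1b and 0.435 in Sle1b.BAC).

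**Figure D2:**
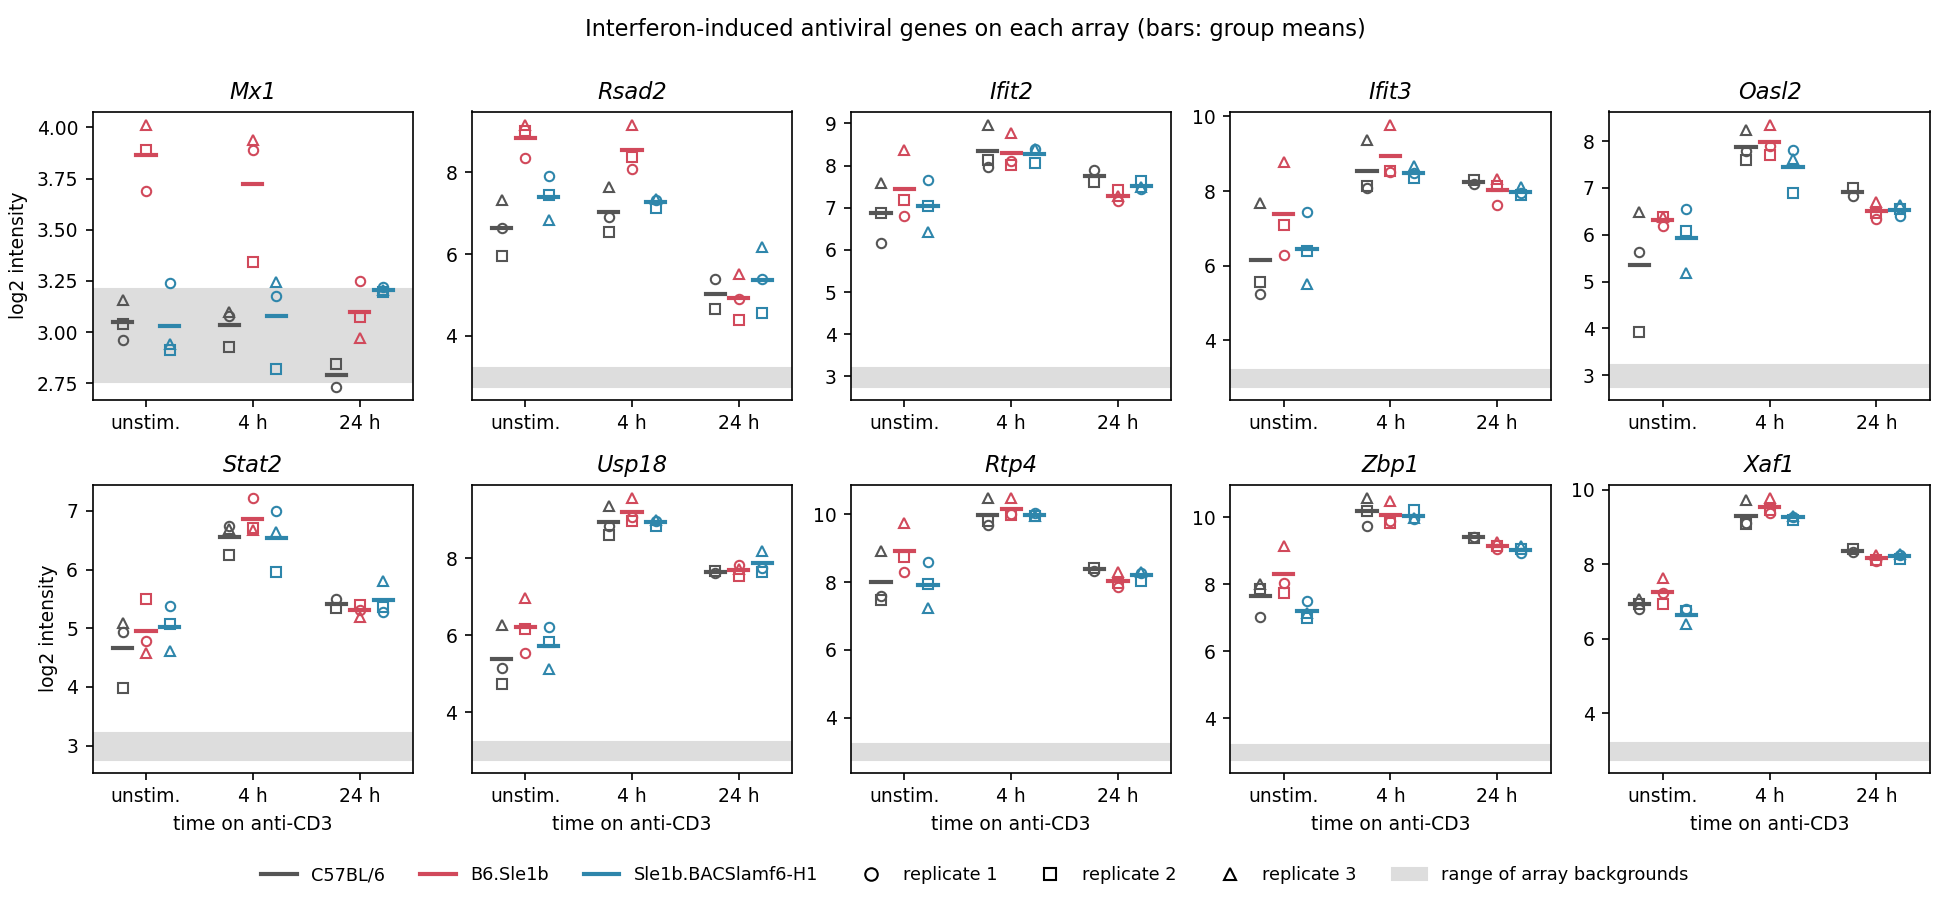
Log2 intensity of each of the 10 genes on each of the 26 arrays against time on anti-CD3, with strain by colour, replicate number by symbol, group means as bars and the range of array backgrounds as a grey band. Usp18 and Xaf1 form 3 separate levels by time, Rsad2 is lowest at 24 h in every strain, and Mx1 lies at or near the grey band except in unstimulated and 4 h B6.Sle1b cells.

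Before stimulation Rsad2 and Mx1 were higher in B6.Sle1b than in C57BL/6, and the other 8 genes did not pass the test. The share of all genes called higher in this comparison was 0.105%. The mean level was higher in B6.Sle1b for all 10 genes and for 56.4% of all genes. The median difference was 0.83 over the 10, against 0.02 over all genes. Arrays of a group deviate in a shared way over the 10 genes, so these are not 10 separate observations. An unadjusted p under 0.05 was reached by 6 of the 10 and by 4.14% of all genes. The median fell to 0.50 without B6.Sle1b unstimulated replicate 3.

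Rsad2 was 8.84 ± 0.43 (SD, n = 3) in B6.Sle1b and 6.64 ± 0.68 in C57BL/6, with no overlap between the arrays given above. The difference was 2.20 ± 0.42 (4.59-fold, 95% interval 1.33 to 3.07 on the log2 scale, adjusted p = 0.0332, limma). Mx1 read 3.69, 3.89 and 4.01 in B6.Sle1b and 2.96, 3.04 and 3.16 in C57BL/6, again with no overlap. Its C57BL/6 mean, 3.05, was not above the mean background of those arrays, 3.08, so the difference of 0.81 ± 0.15 (adjusted p = 0.0209) is stated as at least 1.68-fold, the B6.Sle1b mean against the higher of background and signal on each C57BL/6 array. Mx1 was above background on all 3 B6.Sle1b arrays and on 1 of the 3 C57BL/6 arrays.

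The other 8 genes had arrays that overlapped between the strains and were not called. Ifit3 differed by 1.22 ± 0.60, Oasl2 by 0.97 ± 0.42, Rtp4 by 0.94 ± 0.36, Usp18 by 0.84 ± 0.34, Zbp1 by 0.67 ± 0.29, Ifit2 by 0.57 ± 0.37, Xaf1 by 0.34 ± 0.17 and Stat2 by 0.28 ± 0.29, with adjusted p-values of at least 0.97 (limma).

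Both strain calls depended on single arrays. The Mx1 call was lost without any of the 3 C57BL/6 unstimulated arrays or B6.Sle1b unstimulated replicate 2 or 3 (adjusted p up to 0.0932, limma). The Rsad2 call was lost without C57BL/6 unstimulated replicate 1 or 2, B6.Sle1b unstimulated replicate 2 or 3, or, through the shared estimate of the spread, Sle1b.BAC unstimulated replicate 2, 4 h replicate 3 or 24 h replicate 1 (up to 0.246). Leaving out together the 3 arrays with the lowest 75th percentiles (C57BL/6 unstimulated replicate 2, B6.Sle1b unstimulated replicate 3 and Sle1b.BAC 4 h replicate 2) ended both, at 1.70 (adjusted p = 0.444) for Rsad2 and 0.73 (0.156) for Mx1, and lowered the median over the 10 genes to 0.23. With array weights that median was -0.06, while Rsad2 (1.32, adjusted p = 0.0042) and Mx1 (0.61, 0.000918) stayed called. Centring arrays on their median ended the Rsad2 call (0.0592), and a fit of the 2 groups alone ended both.

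Levels of markers of other cells in the unstimulated groups were as follows. The summed intensity of the 6 neutrophil markers read of 7 was 57.2 to 163 in C57BL/6, where Camp was at background, 86.6 to 583 in B6.Sle1b and 137 to 791 in Sle1b.BAC, with a median difference of 1.09 between B6.Sle1b and C57BL/6. The 8 monocyte and macrophage markers summed to 105 to 128 in C57BL/6, with Adgre1 and Cd68 at background, 123 to 174 in B6.Sle1b and 120 to 149 in Sle1b.BAC. The 8 B cell markers read of 9 summed to 683 to 865, 427 to 534 and 451 to 596, with Pax5 and Cr2 at background in every strain. The 5 plasmacytoid dendritic cell markers read of 8 summed to 268 to 364, 193 to 379 and 190 to 258, with none at background. The 3 erythroid markers read of 5 summed to 1376 to 3813, 3363 to 3815 and 841 to 2190. Before stimulation no marker in any of these lists was called between B6.Sle1b and C57BL/6. Neutrophil, monocyte and erythroid sums had higher medians in B6.Sle1b, and their part in the strain difference was not tested.

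**Figure D3:**
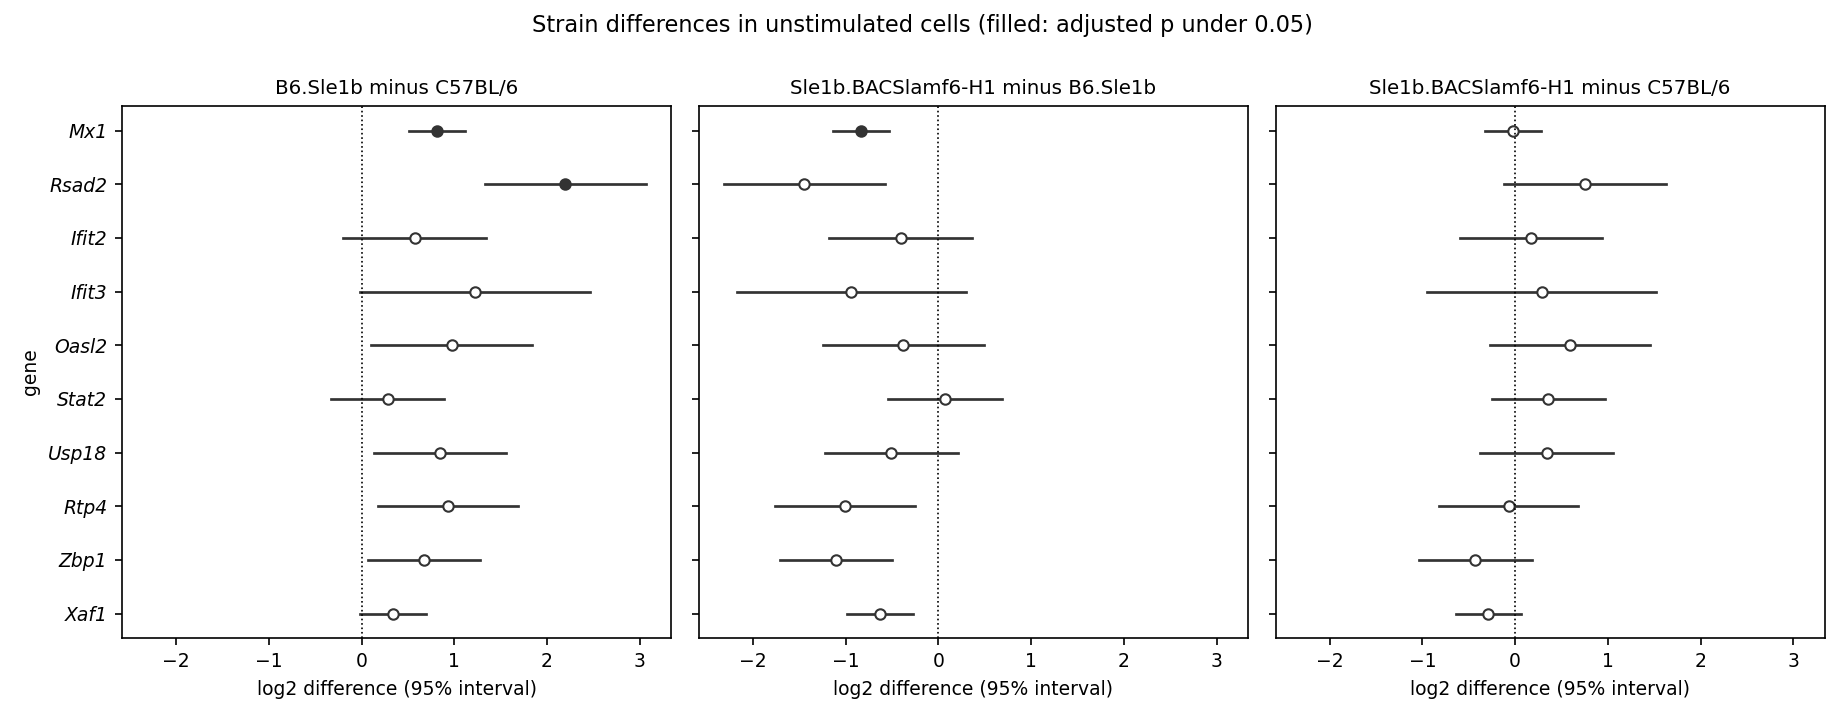
Log2 difference between strains in unstimulated cells for each of the 10 genes with its 95% interval, where filled points have an adjusted p under 0.05. All 10 points lie right of 0 for B6.Sle1b minus C57BL/6, where Rsad2 (2.20) and Mx1 (0.81) are filled, and Mx1 (-0.83) is filled for Sle1b.BAC minus B6.Sle1b.

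At 4 h none of the 10 genes was called between B6.Sle1b and C57BL/6, where 0.0409% of all genes were called, and 2 reached an unadjusted p under 0.05, as did 3.61% of all genes. Those were Rsad2, with 1.51 ± 0.42 (adjusted p = 0.573, limma), and Mx1, with 0.69 ± 0.15 (0.166), both without overlap between arrays. Mx1 read 3.08, 2.93 and 3.10 in C57BL/6 at 4 h. The median over the 10 was 0.25. At 24 h none was called, against 0.0409% of all genes, and none reached an unadjusted p under 0.05. The difference was negative for 8 of the 10, with a median of -0.22, while 45.1% of all genes had a positive one. Rsad2 was 4.93 ± 0.56 (SD, n = 3) in B6.Sle1b and 5.02 ± 0.53 (n = 2) in C57BL/6. At 24 h the arrays of these strains did not overlap for 6 of the 10 genes, 5 of them lower and 1 higher in B6.Sle1b. With only 2 C57BL/6 arrays, arrays separate easily. The share of all genes without overlap is not given, so the count does not set the 10 genes apart. As the mean of the 3 times, Mx1 was higher in B6.Sle1b by 0.60 ± 0.09 (adjusted p = 0.00143) and Rsad2 by 1.20 ± 0.25 (0.0357), where 0.181% of all genes were called higher. Mx1 in C57BL/6 was not above background unstimulated and at 24 h, and with each C57BL/6 array at the higher of its background and its signal the Mx1 difference was at least 1.45-fold (0.54 log2). In the same comparison the B cell markers Cd79b (-0.89 ± 0.14) and Ms4a1 (-0.88 ± 0.19) were called lower, 2 of the 8 read, and the monocyte and macrophage marker Lyz2 (1.28 ± 0.22) was called higher, 1 of 8. Their part was not tested. These means include the unstimulated arrays already described. The call of Rsad2 was lost without 15 of the 26 arrays in turn (adjusted p up to 0.192) while that of Mx1 held without each of the 26 (up to 0.0121).

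In Sle1b.BAC the 10 genes lay, before stimulation, mostly between those of the other strains or near C57BL/6. Against B6.Sle1b, 9 of the 10 had a lower mean, with a median difference of -0.73, while 40.8% of all genes had a higher mean. An unadjusted p under 0.05 was reached by 5 of the 10 and by 8.13% of all genes. That median was -0.40 without B6.Sle1b unstimulated replicate 3, -0.49 without Sle1b.BAC unstimulated replicate 3 and -0.11 with array weights. Mx1 passed the test, where 0.0819% of all genes were called lower. It read 3.24, 2.91 and 2.94 in Sle1b.BAC, below every B6.Sle1b array, a difference of -0.83 ± 0.15 (1.78-fold lower, adjusted p = 0.0217, limma). Mx1 was above background on 2 of these 3 Sle1b.BAC arrays, with a mean of 3.03 against a mean background of 2.84. The size of this fold is therefore limited by background. Rsad2 (-1.44 ± 0.42, adjusted p = 0.334), Zbp1 (-1.10 ± 0.29, 0.308) and Xaf1 (-0.63 ± 0.17, 0.308) had no overlap between arrays and were not called. Rtp4 differed by -1.01 (0.471), Ifit3 by -0.94, Usp18 by -0.51, Ifit2 by -0.40, Oasl2 by -0.38 and Stat2 by 0.07. The Mx1 call was lost without B6.Sle1b unstimulated replicate 3 or Sle1b.BAC unstimulated replicate 2 or 3 (adjusted p up to 0.218), without the 3 arrays of lowest intensity (0.0521), after quantile normalizing again (0.0535) and after centring arrays on their median (0.0875). The erythroid sums given above were lower in every Sle1b.BAC array than in every B6.Sle1b array. Of the 8 monocyte and macrophage markers 1, Ms4a6d, was called lower in Sle1b.BAC, with a difference of -1.14 ± 0.19 (adjusted p = 0.0171). The part of these markers in the Mx1 difference was not tested.

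At 4 h and at 24 h no member was called between Sle1b.BAC and B6.Sle1b, and 0% of all genes were called at either time. At 4 h 2 of the 10 genes reached an unadjusted p under 0.05 and at 24 h none did, beside 3.59% and 5.31% of all genes. Rsad2 differed by -1.26 and Mx1 by -0.64 at 4 h, when Mx1 read 3.18, 2.82 and 3.25 in Sle1b.BAC. As the mean of the 3 times Mx1 was lower in Sle1b.BAC by 0.46 ± 0.08 log2 units (adjusted p = 0.0364, limma), where 0.0643% of all genes were called lower and 4 members and 6.09% of all genes reached an unadjusted p under 0.05. That call was lost without 13 of the 26 arrays in turn (adjusted p up to 0.105).

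Between Sle1b.BAC and C57BL/6 none of the 10 genes was called unstimulated, at 4 h, at 24 h or as the mean of the times, where 0.0585%, 0.0643%, 0.0351% and 0.228% of all genes were called. An unadjusted p under 0.05 was reached by 0, 0, 1 and 0 of the 10, and by 5.66%, 5.77%, 2.29% and 6.86% of all genes. The medians were 0.23, -0.03, -0.17 and -0.02. The arrays did not overlap for 1, 0 and 6 of the 10 genes unstimulated, at 4 h and at 24 h, and 5 of the last were lower in Sle1b.BAC. The 24 h count rests on the same 2 C57BL/6 arrays as the one for B6.Sle1b. Again the share of all genes without overlap is not given, so these counts do not set the 10 genes apart. For Rsad2 in unstimulated cells the difference was 0.75 ± 0.42, with a 95% interval of -0.12 to 1.63, and for Mx1 it was -0.02, with an interval of -0.33 to 0.28. These intervals do not show that the strains have equal levels.

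The difference between strains in the response to anti-CD3 was tested directly and no member was called. These tests use the same unstimulated arrays as the strain comparisons above and are not independent of them. For the 4 h response, 0 of the 10 genes reached an unadjusted p under 0.05 for B6.Sle1b against C57BL/6, beside 2.2% of all genes. For Sle1b.BAC against B6.Sle1b 1 did, beside 5.28%, and for Sle1b.BAC against C57BL/6 0 did, beside 3.88%. In each, 0% of all genes were called. For the 24 h response the counts of the 10 genes were 6, 5 and 0, in the same order of strain pairs. There 0%, 0.00585% and 0% of all genes were called, and 4.8%, 5.11% and 1.84% reached an unadjusted p under 0.05. For all 10 genes B6.Sle1b had a lower 24 h response than C57BL/6, while 41.7% of all genes had a higher one. The median difference was -0.98 over the 10, against -0.05 over all genes. That median was -0.59 without B6.Sle1b unstimulated replicate 3, -0.52 without the 3 arrays of lowest intensity and -0.25 with array weights. For Rsad2 the difference of responses was -2.29 ± 0.63 (95% interval -3.60 to -0.99, adjusted p = 0.715, limma). Against B6.Sle1b, the 24 h response was higher in Sle1b.BAC for all 10 and for 54.8% of all genes. The median over the 10 was 0.79, against 0.03 over all genes. It was 0.44 without B6.Sle1b unstimulated replicate 3, 0.49 without Sle1b.BAC unstimulated replicate 3 and 0.23 with array weights. The response was higher by 1.89 ± 0.59 for Rsad2 (adjusted p = 0.756) and by 0.94 ± 0.21 for Mx1 (0.391).

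Across the 9 groups, the highest levels of Mx1 and Rsad2 lay elsewhere than those of the other 8 genes. Mx1 and Rsad2 were highest in unstimulated B6.Sle1b cells, followed by 4 h B6.Sle1b cells. For Rsad2 the 6 B6.Sle1b arrays of these groups began at 8.07, above the highest of all other arrays, 7.91, while the next 4 groups in the order, Sle1b.BAC unstimulated and at 4 h and C57BL/6 at 4 h and unstimulated, overlapped one another. For Mx1, the order among the other 7 groups lay close to background, from 3.21 ± 0.01 (SD, n = 3) in Sle1b.BAC at 24 h, where its arrays read 3.22, 3.19 and 3.20, to 2.79 ± 0.08 (n = 2) in C57BL/6 at 24 h. The other 8 genes were highest in the 3 groups at 4 h, and no difference between strains at 4 h was called for any of them. Over the 9 group means the correlation was 0.74 between Mx1 and Rsad2, 0.72 to 0.99 among the other 8, and 0.56 between Rsad2 and Rtp4. These describe groups that share normalization and are given without a test.

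The other genes of the pathway, from lists of ligands, receptors, sensors and interferon-stimulated genes, are given next. Their counts at 4 h are to be read against the 4.08%, 2.57% and 4.22% of all genes called higher in C57BL/6, B6.Sle1b and Sle1b.BAC. Of 19 interferon ligand genes listed, 9 were read, and none was called in any comparison. Ifnb1, the main early type I interferon, was not above background in any of the 9 groups, with means from 2.35 to 2.68. Ifna5, Ifna6 and Ifna11 were not above background in any group either, while Ifna2 (3.23 to 3.75) and Ifna7 (3.42 to 3.82) were above it in all 9. Transcripts below background may still be present.

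Of the 12 receptor and signalling genes 11 were read, and they did not move as 1 group. At 4 h 2 rose in every strain, Socs1, an inhibitor of JAK kinases, by 3.86, 3.30 and 3.39 in C57BL/6, B6.Sle1b and Sle1b.BAC, and Ptpn6, the phosphatase SHP-1, by 1.21, 1.05 and 1.19. None fell in C57BL/6, 1 fell in B6.Sle1b and 2 in Sle1b.BAC. Ifnar1, a chain of the receptor, differed by -0.63 (not called), -0.70 and -1.02 at 4 h and fell at 24 h by 1.21, 1.72 and 1.38 log2 units. Ifnar2, the other chain, differed at 24 h by -0.53, -0.87 and -0.46, the last not called. Jak1, the kinase bound to IFNAR2, fell at 24 h by 1.23, 1.20 and 1.47. Irf9, the partner of STAT2, differed at 24 h by -0.38 (not called), -0.94 and -0.73. At 24 h 2, 3 and 5 of the 11 genes were higher and 3, 4 and 3 lower than unstimulated, in the same order of strains. Of all genes 15.7%, 14.8% and 17.2% were called higher and 8.6%, 13.4% and 11.9% lower at that time.

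All 16 nucleic acid sensing genes were read. At 4 h 7, 8 and 5 rose in C57BL/6, B6.Sle1b and Sle1b.BAC, and at 24 h 4, 3 and 5 were higher and 2, 3 and 3 lower than unstimulated. At 24 h these few genes are to be read against the shares of all genes given above for that time (15.7%, 14.8% and 17.2% higher, 8.6%, 13.4% and 11.9% lower), which they lie near. Irf7, the transcription factor that amplifies interferon production, rose at 4 h by 1.51, 1.41 and 1.01 and at 24 h differed by 0.17, -0.26 and 0.03. Irf7 was not called at 24 h in any strain. Sting1, the adaptor of cytosolic DNA sensing, rose at 4 h by 1.65, 1.60 and 1.41 and stayed higher at 24 h by 1.51, 1.66 and 1.46. Ifih1, the RNA sensor MDA5, fell at 24 h by 2.02, 3.35 and 2.63 on the log2 scale, as Rsad2 did.

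Among other interferon-stimulated genes, 44 of 50 were read, and 29, 27 and 23 of them rose at 4 h in C57BL/6, B6.Sle1b and Sle1b.BAC, with 0, 0 and 1 lower. Their medians were 1.12, 0.91 and 0.81. Parp9, of the ADP-ribosyltransferase family, rose by 2.38, 2.05 and 2.35, Slfn8, a Schlafen family gene, by 2.21, 2.30 and 2.24, and Ifi203, of the AIM2-like receptor family, by 2.37, 2.14 and 2.32. At 24 h 18, 14 and 19 of the 44 were higher and 4, 9 and 6 lower than unstimulated. Of all genes 15.7%, 14.8% and 17.2% were called higher and 8.6%, 13.4% and 11.9% lower at that time. From 4 h to 24 h 24, 37 and 21 fell and 1 rose in each strain, where 6.67%, 11.1% and 7.82% of all genes were called lower. Ifi203 was lower by 2.30, 2.53 and 2.45 log2 units. Ifit1 and Oasl1, close relatives of Ifit2, Ifit3 and Oasl2, were not called at 4 h (Ifit1 0.33, -0.30 and 0.35, Oasl1 0.14, -0.42 and -0.38) and fell at 24 h by 1.92, 3.25 and 2.20 (Ifit1) and by 1.64, 3.0 and 1.68 (Oasl1). Rsad2 likewise was not called at 4 h and fell at 24 h.

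None of the 44 was called between strains at any time. In unstimulated cells 38 of the 44 had a higher mean in B6.Sle1b than in C57BL/6, as did 56.4% of all genes. The median over the 44 was 0.24, against 0.02 over all genes. For Oasl1, the difference was 1.25 (adjusted p = 0.849, limma), and for Isg20, an exonuclease, 0.89 (0.735).

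Genes known for the response to interferon gamma, the cytokine of T helper 1 cells, were examined because many respond to both interferons. Of 14 listed 12 were read, and 10, 9 and 10 rose at 4 h and 9, 6 and 8 were higher at 24 h, with 0, 1 and 1 lower. Of all genes 15.7%, 14.8% and 17.2% were called higher and 8.6%, 13.4% and 11.9% lower at 24 h. Gbp2, a guanylate-binding GTPase, rose at 4 h by 3.56, 2.73 and 3.48. At 24 h it was higher by 3.26, 2.36 and 3.18. Cxcl9, a chemokine induced mainly by interferon gamma, was higher at 24 h by 4.27, 4.61 and 5.28. Cxcl10, a chemokine that type I interferon also induces, differed by -1.38 (not called), -3.09 and -1.85 at 24 h, the direction of Rsad2. In unstimulated cells all 12 had a higher mean in B6.Sle1b than in C57BL/6, as did 56.4% of all genes. The median over the 12 was 0.48, and none was called. Socs1 is in this list as well as in the signalling list.

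**Figure D4:**
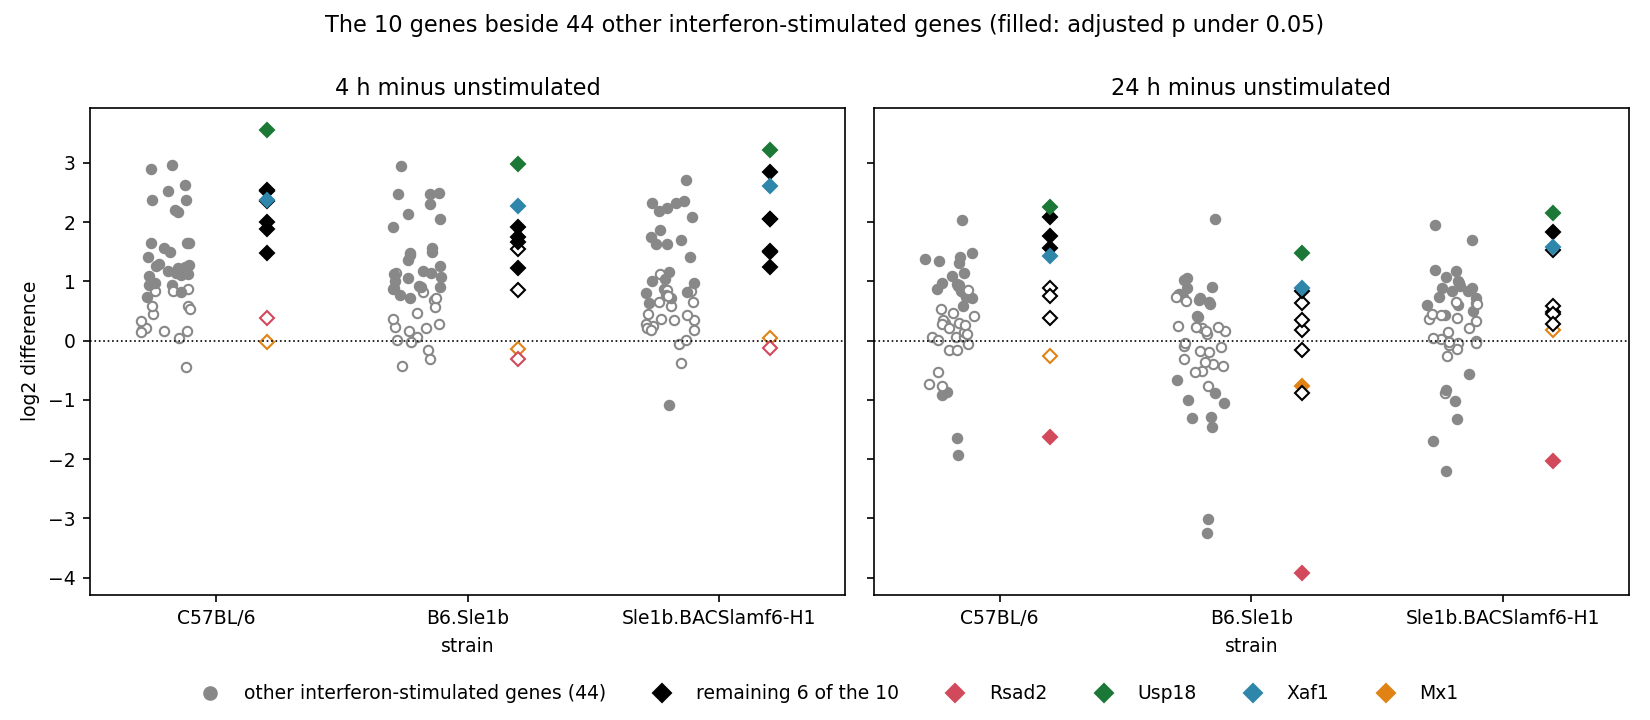
Log2 difference from unstimulated cells at 4 h and 24 h in each strain for 44 other interferon-stimulated genes (grey circles) and for the 10 genes (diamonds, with Rsad2, Usp18, Xaf1 and Mx1 coloured), where filled symbols have an adjusted p under 0.05. At 4 h most symbols lie above 0 with Usp18 the highest of the 10, and at 24 h they spread to both sides with Rsad2 the lowest of the 10 in every strain.

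The arrays of a group differed in a shared way. After the group mean of each gene was removed, C57BL/6 unstimulated replicate 3 was 0.69 above its group over the 10 genes and was the highest array for all 10, while replicates 1 and 2 were at -0.25 and -0.44. B6.Sle1b unstimulated replicate 3 was at 0.52 and highest for 8 of 10, and replicates 1 and 2 at -0.43 and -0.09. In Sle1b.BAC unstimulated replicate 1 was at 0.49 and highest for all 10, and replicate 3 at -0.50. At 4 h replicate 3 was at 0.44 in C57BL/6 and 0.37 in B6.Sle1b, each highest for 9 of 10, and at 24 h all arrays lay between -0.14 and 0.19. The unstimulated arrays thus spread most and the 24 h arrays least.

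Over the 26 arrays the median correlation of these deviations between pairs of the 10 genes was 0.58, from -0.34 (Stat2 and Zbp1) to 0.97 (Ifit3 and Rtp4), with 43 of 45 pairs above 0. A single axis held 74.3% of the within-group variance of the 10 genes. The correlation of the mean deviation with the deviation in array brightness was 0.048, and with that of the neutrophil markers -0.60. With the erythroid, CD4 T cell and NK cell markers it was -0.49, -0.36 and 0.32. For the remaining marker lists it lay between -0.20 (monocyte and macrophage) and 0.09 (B cell). The part of these cells was not tested. The within-group SD was 0.81 for Ifit3, higher than for 99.9% of all genes, and 0.18 for Mx1 and 0.21 for Xaf1, higher than for 34.8% and 52% of all genes. Arrays share their normalization, so these are descriptions.

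**Figure D5:**
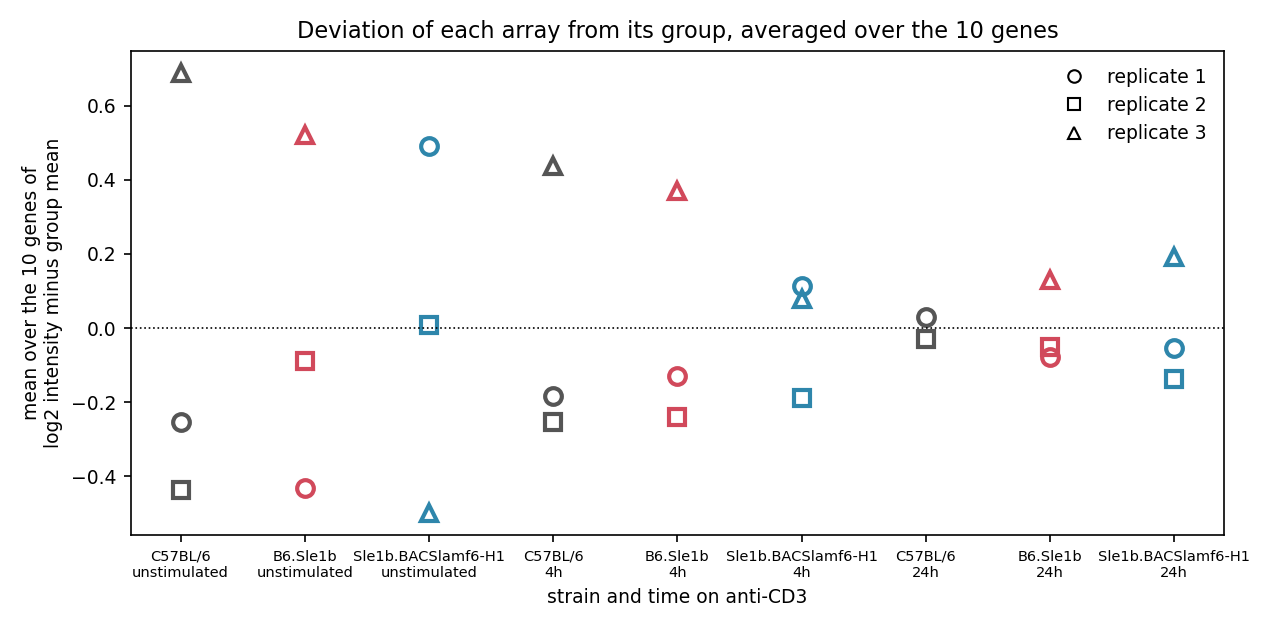
Mean over the 10 genes of log2 intensity minus the group mean, for each of the 26 arrays by group and replicate number. Unstimulated arrays spread from -0.50 to 0.69 and 24 h arrays from -0.14 to 0.19.

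The gene most like the mean of the 10 over the 9 group means, among 3246 genes with a mean of at least 5 log2 and a range of at least 1, was Trim21 (Pearson's r = 0.976), an antibody receptor and ubiquitin ligase, followed by Irgm1 (0.973). Mitd1, Tgtp1, Cd274, Lif, Parp14, Insl6, Gbp3 and Egr2 (0.961) completed the first 10. Over the deviations of the 26 arrays, among 6745 genes, Samd9l came first (r = 0.964), followed by Ifit1 (0.938), Ddx58 (0.927) and Cxcl10 (0.924), then Gm9706, Ccrl2, Herc6, Oasl1, Ifih1 and Sppl2a (0.864). Of these 20 genes none was in both sets. With Rsad2 alone over the 9 group means, a measure chosen after the values were seen, Ttc39c (0.992), Creb3l2 (0.984), Oasl1 (0.983), Gm9706 (0.979) and Cxcl10 (0.975) were the most alike. For Mx1 the highest was Sh3gl3 (0.897).

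Some of the 10 genes have further probe sets with the same single symbol. The other 2 of Rsad2 differed between unstimulated B6.Sle1b and C57BL/6 by 2.45 ± 0.44 (adjusted p = 0.0279 over all probe sets, limma) and 1.94 ± 0.28 (0.00421), beside 0.045 for the probe set used. From unstimulated to 24 h in B6.Sle1b they fell by 3.77 and 2.50 log2 units. Between unstimulated B6.Sle1b and C57BL/6 the dimmer probe sets of Rtp4, Stat2, Xaf1 and Zbp1 differed by 0.22, -0.006, 0.06 and 0.09. Those used differed by 0.94, 0.28, 0.34 and 0.67. The mean background was 3.08 in C57BL/6 and 2.98 in B6.Sle1b. There the dimmer probe set of Xaf1 (2.72 and 2.78) lay below background. Those of Stat2 (3.13 and 3.12) and Rtp4 (3.15 and 3.36) lay near it. A probe set at background has little room to show a difference, so for these genes the probe sets cannot be compared. The second of Zbp1 (3.77 and 3.86) lay above background, so the Zbp1 difference depends on the probe set. Between unstimulated Sle1b.BAC and B6.Sle1b the same dimmer probe sets differed by -0.57, -0.15, -0.16 and -0.63, beside -1.01, 0.07, -0.63 and -1.10. For Zbp1 the second probe set rose at 4 h by 2.41, 2.37 and 2.79 in the 3 strains, and at 24 h was higher by 2.50, 2.36 and 3.24, beyond the 1.76, 0.85 and 1.83 of the probe set used, so that its fall between 4 h and 24 h depends on the probe set. The dimmer probe sets of Rtp4 (1.08, 0.92 and 1.19), Xaf1 (0.86, 0.56 and 0.80) and Stat2 (0.64, 0.66 and 0.66) showed smaller differences at 4 h than those used, and that of Stat2 was not called in any strain (adjusted p = 0.102, 0.111 and 0.065, limma). These probe sets lay near or below background before stimulation, which limits the differences they can show.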

How the data were processed

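Each array's 45141 deposited values are linear intensities that the authors computed by RMA according to the submitters' processing notes, which give no version. This method quantile normalizes arrays, which can hide shifts shared by most genes. From these deposited intensity values log2 was taken, with no filter and no pseudocount. The platform's annotation gave 28898 probe sets with 1 gene symbol, of which 28689 were found in RefSeq (GRCm38.p6), and the brightest per gene gave 17097 genes. limma 3.58.1 in R 4.3.3 fitted 9 group means over 26 arrays, with 27 contrasts. The genes and lists were chosen with earlier results of these data known. Named were the 10 genes, in each list the smallest adjusted p-values and Ifnar1, Ifnar2, Irf7 and Irf9, and the genes most like the 10. The steps were tested on simulated data. Deviations of same-numbered arrays from their group means correlated above 0.1 in all 9 pairs within B6.Sle1b (0.144 to 0.734), in 2 of 7 within C57BL/6 and in 4 of 9 within Sle1b.BAC. Same-numbered arrays of different strains did so in 30 of 75 pairs (up to 0.786), so such a correlation does not by itself show pairing. For an alternative fit only, the numbers were taken to pair the B6.Sle1b arrays, from the data and not the labels. That fit, with the number as a block within strains, was chosen after seeing the data and is given beside the B6.Sle1b calls it changes. Alternatives were other arrays, normalizations, filters, probe sets and fits. Precision is limited by 2 or 3 arrays a group.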

Additional observations from a re-analysis of the deposited data

Results flagged for a closer look

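The 2 arrays of C57BL/6 at 24 h titled technical took no part in the comparisons, and the labels do not say which RNA they repeat. Against unstimulated C57BL/6, 7 of the 10 genes were higher on them, beyond the levels on the unstimulated arrays. The share of all genes beyond those levels is not given, so the count does not set the 10 genes apart. On the biological arrays 15.7% of all genes were called higher at 24 h in C57BL/6. The mean log2 difference was 0.80 for Ifit2, 2.06 for Ifit3, 1.34 for Oasl2, 0.54 for Stat2, 2.31 for Usp18, 1.69 for Zbp1 and 1.69 for Xaf1. For each of the 10 genes their mean lay within 0.26 log2 units of that of the 2 biological arrays of the same group.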

How the results depend on the processing

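Of 62 calls over the 10 genes and all comparisons, 38 held without each array in turn, 42 under every other alternative and 35 under all, and none changed sign. The number of the 10 genes called moved as follows. Higher in unstimulated B6.Sle1b than in C57BL/6 (2), it was 0 without the 3 dim arrays, 0 with only the groups compared and 1 after centring arrays on their median. Lower in unstimulated Sle1b.BAC than in B6.Sle1b (1), it was 0 in each of these and after quantile normalizing again, 2 with brightness as a covariate and 4 with array weights. The number higher at 4 h was 5 in C57BL/6 with only the groups compared (8) and 5 in Sle1b.BAC with array weights (8). At 24 h it was 3 in C57BL/6 under either (5), 5 in B6.Sle1b with array weights (3) and 5 in Sle1b.BAC with brightness as a covariate (3). The cause was not tested, and the first 2 alternatives also use fewer arrays.

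Without each array in turn, the counts ranged from 0 to 2 for B6.Sle1b over C57BL/6 and from 0 to 1 for Sle1b.BAC under B6.Sle1b. At 4 h, 6 to 8 were higher in C57BL/6, 4 to 8 in B6.Sle1b and 5 to 8 in Sle1b.BAC. At 24 h, 3 to 6, 2 to 3 and 3 to 4 were higher and 0 to 1, 2 to 3 and 1 to 1 lower. From 4 h to 24 h, 2 to 6, 6 to 9 and 4 to 7 fell. With the replicate number as a block the counts were 2 for B6.Sle1b over C57BL/6 and 8, 6 and 8 at 4 h, and the block added Ifit2 (24 h against 4 h, B6.Sle1b) and Ifit3 (24 h, Sle1b.BAC). At 4 h, where same-numbered B6.Sle1b and C57BL/6 arrays also correlated above 0.1 (0.146 to 0.71), it called 0 of the 10 between them. Within strains, a choice made after seeing the data, the block ended no call. In B6.Sle1b it changed no call but those given above for Ifit3, Rtp4 and Ifit2. In the other strains only some pairs of same-numbered arrays correlated above 0.1. There, 7 genes were higher at 24 h in C57BL/6 (5) and 4 in Sle1b.BAC (3), and 7 fell from 4 h to 24 h in Sle1b.BAC (6). Scaling moved the median of all genes by at most 0.074. The array weights did not fully converge. Genes near background, Mx1 above all, have little room to fall.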
